A study of Caenorhabditis elegans with 6 samples.

Results

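The genes described here build and anchor the contractile apparatus of the body wall muscle of the nematode Caenorhabditis elegans. They comprise thick and thin filament proteins, giant sarcomere proteins, attachment proteins, calcium and excitation genes, and muscle transcription factors. They were taken from a list of 45 gene symbols, and a gene counted as measured when a probe set of the array carried its symbol alone. This held for 44 of the 45, each with 1 probe set, out of 25478 genes measured in this way. The remaining gene is unc-52, whose product is the perlecan of the muscle basement membrane. Its probe set lists the symbol under 2 gene identifiers, so it was left out of the counts.

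Total RNA came from whole staged L4 hermaphrodites of the wild-type strain N2, on 6 Affymetrix arrays. Control larvae (3 arrays) were raised from L1 for 48 hours on NGM, the standard nematode medium, with Escherichia coli OP50 as food. Perchlorate larvae (3 arrays) were raised in the same way, with sodium perchlorate at 1 mg/mL both in agar and in food. Both groups were kept at 20 °C. The growth notes deposited for the controls also mention perchlorate, but every other label calls these samples untreated controls, and that was followed. Separate cultures are not stated for the replicates, so p-values rest on a spread among samples that may be technical. Levels are log2 values from the robust multi-array average (RMA), and a difference is perchlorate minus control on that scale.

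In the sarcomere of C. elegans, myosin thick filaments are held at the M-line and actin thin filaments at dense bodies, the counterparts of vertebrate Z-discs. Integrins in the cell membrane tie both structures to the basement membrane and through it to the cuticle, so that shortening of the muscle bends the body. Depolarisation opens calcium channels in the membrane, calcium is released from internal stores, and troponin on the thin filament responds to it. The muscle grows by adding sarcomeres and lengthening cells through the larval stages.

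Sarcomere genes lay on the low side in larvae raised with perchlorate, by small amounts. Of the 44 genes, 41 were below 0 and 3 above, with a median log2 difference of -0.24, beside a median of 0.03 and 44.8% below 0 over all 26192 probe sets tested. Differences ran from -0.69 in unc-89 to 0.04 in mlc-2. No sarcomere gene passed limma at an adjusted p under 0.05 (0 of 44, adjusted p between 0.148 and 0.976), in a fit where 2 probe sets in all passed, 0.00764% of those tested. At an unadjusted limma p under 0.05, 17 sarcomere genes were lower and 0 higher, where 7.92% of all probe sets were lower and 8.46% higher. The 3 perchlorate values lay below all 3 control values in 24 genes and above them in 0, beside 11.2% and 12.8% of all probe sets. With a trended and robust prior, where 1.25% of all probe sets passed adjusted, 2 sarcomere genes did (unc-54 and myo-3, limma adjusted p = 0.0351 and 0.0418). Among probe sets above the median level, 0.741% passed and 0 sarcomere genes did. Of these 13096 probe sets, which include all 44 sarcomere genes, 6333 lay below 0, and the median difference was 0.01. At an unadjusted limma p under 0.05, 1801 of them were lower and 1695 higher. In the same fit 20 sarcomere genes were lower and 0 higher. Perchlorate values lay below all controls in 2229 of the 13096 and above them in 2176, so both shares exceed those over all probe sets. The count of 17 was 11 without control replicate 1 and 10 without control replicate 2. Because whole animals were used, less RNA per muscle cell and a smaller share of muscle in the animal cannot be told apart here.

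**Figure D1:**
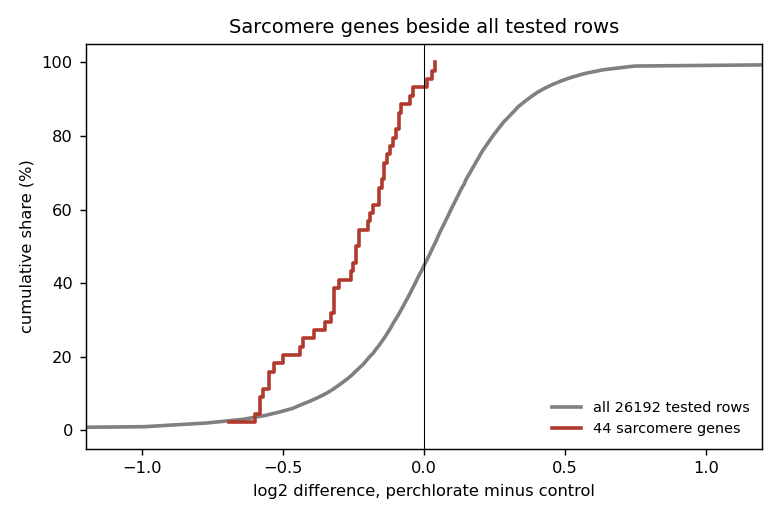
Cumulative share in percent (vertical axis) of the log2 difference, perchlorate minus control (horizontal axis), for the 44 sarcomere genes (red steps) and all 26192 tested probe sets (grey line). The red steps lie left of the grey line over most of their range, with medians of -0.24 and 0.03, and end at 0.04.

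Signal for these muscle genes was present on every array. On each control array 44 of the 44 sarcomere genes were above the array's median, and on each perchlorate array 43 were, the exception being unc-105. Relative to the control mean, the median of the 44 genes was 0.02, 0.04 and -0.05 in control replicates 1, 2 and 3. With perchlorate it was -0.34, -0.12 and -0.25. Replicate 1 had the lowest perchlorate value in 34 of the 44 genes, replicate 3 in 8 and replicate 2 in 2. Without perchlorate replicate 1 the median difference was -0.18, 13 genes were lower and 0 higher at an unadjusted limma p under 0.05, beside 7.24% and 7.03% of all probe sets. Without that array 24 genes lay below and 0 above the controls without overlap, beside 15.7% and 17.5%. Replicates of a sarcomere gene had a median SD of 0.0673 among controls and 0.124 among perchlorate arrays, and a difference had a median SE of 0.123.

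**Figure D2:**
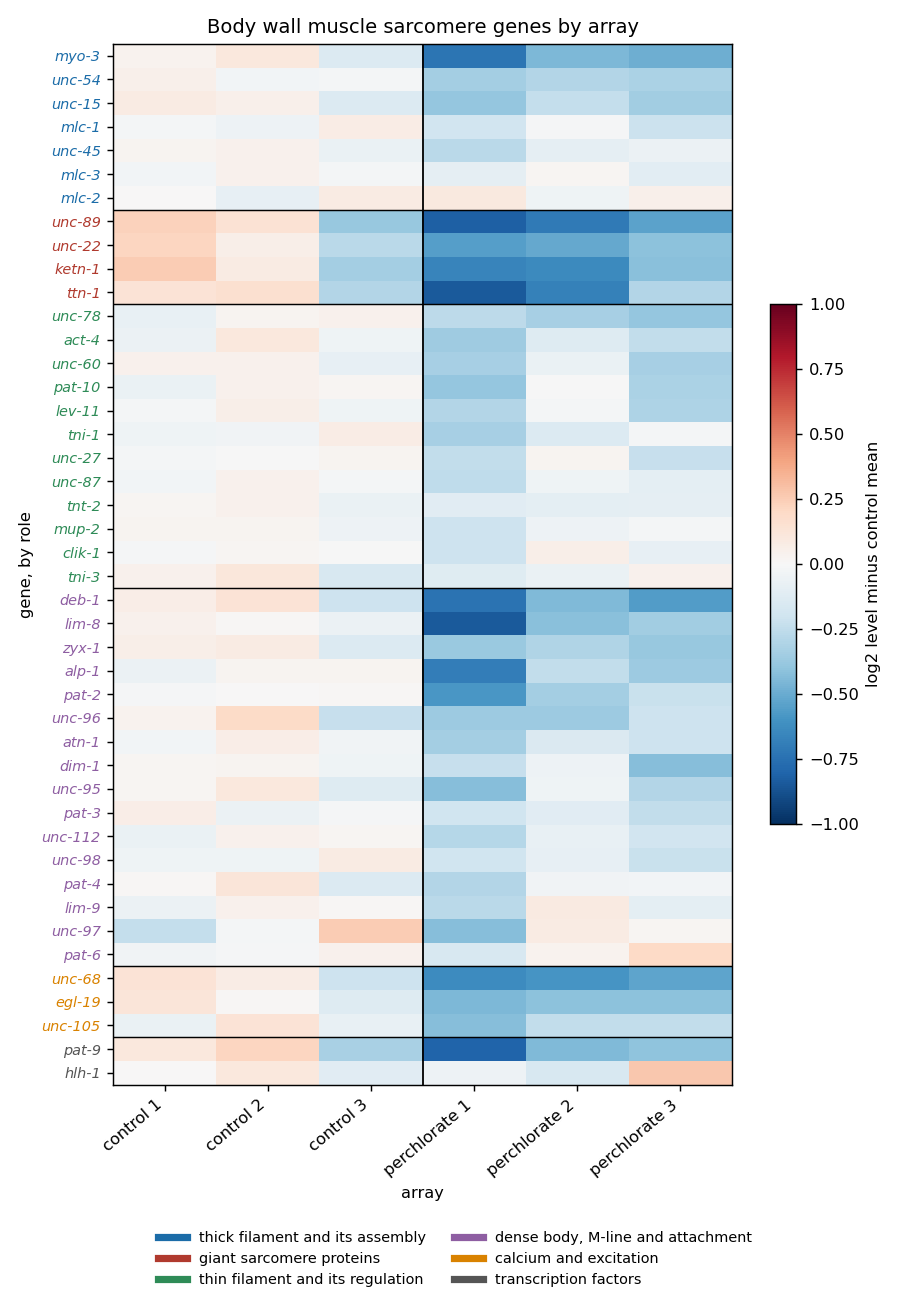
Log2 level of each sarcomere gene on each of the 6 arrays minus that gene's control mean (colour, blue below and red above), with genes as rows grouped by role and arrays as columns. Perchlorate replicate 1 holds the lowest perchlorate value in 34 of the 44 genes, and control replicate 3 is pale blue in the giant sarcomere genes.

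The giant sarcomere proteins are long chains with many immunoglobulin domains that scaffold the filaments, and their 4 genes formed the role group with the lowest median. That median was -0.58, with 4 of 4 lower at an unadjusted limma p under 0.05 and 0 passing adjusted (limma adjusted p between 0.167 and 0.208). At that unadjusted level 7.92% of all probe sets were lower and 8.46% higher. The 4 genes were read on the same 6 arrays, so they are not independent of each other. These genes, like the ryanodine receptor gene unc-68, are also very long, and a relation of the differences to length was not tested. The gene unc-89 encodes the obscurin homologue of the M-line. Its level was 9.90, 9.81 and 9.29 in controls and 8.85, 8.96 and 9.13 with perchlorate, in the order of replicates 1, 2 and 3 as throughout. All 3 perchlorate values lay below the controls, the nearest pair being control replicate 3 and perchlorate replicate 3, and the difference was -0.69 (SE 0.184, limma adjusted p = 0.167), or 62.2% of the control level. For ttn-1, a titin-like gene, levels were 8.63, 8.65 and 8.20 in controls and 7.65, 7.82 and 8.20 with perchlorate. The groups met at perchlorate replicate 3 and control replicate 3, and the difference was -0.60 (SE 0.191, limma adjusted p = 0.208).

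Kettin, encoded by ketn-1, binds thin filaments near the dense body. Its level was 10.87, 10.70 and 10.28 in controls and 9.96, 9.98 and 10.20 with perchlorate, a difference of -0.57 (SE 0.174, limma adjusted p = 0.198). Twitchin, the giant kinase of the thick filament encoded by unc-22, was at 9.61, 9.45 and 9.12 in controls and at 8.84, 8.88 and 8.98 with perchlorate. The unc-22 difference was -0.50 (SE 0.151, limma adjusted p = 0.193). In both genes the groups did not overlap, and as in unc-89 and ttn-1 the lowest control was replicate 3 and the highest perchlorate value replicate 3. Against the control mean, the median of the giant genes was 0.23, 0.11 and -0.32 in controls and -0.74, -0.65 and -0.41 with perchlorate. Leaving out control replicate 3 gave a median difference of -0.74, and leaving out control replicate 1 gave -0.48.

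**Figure D3:**
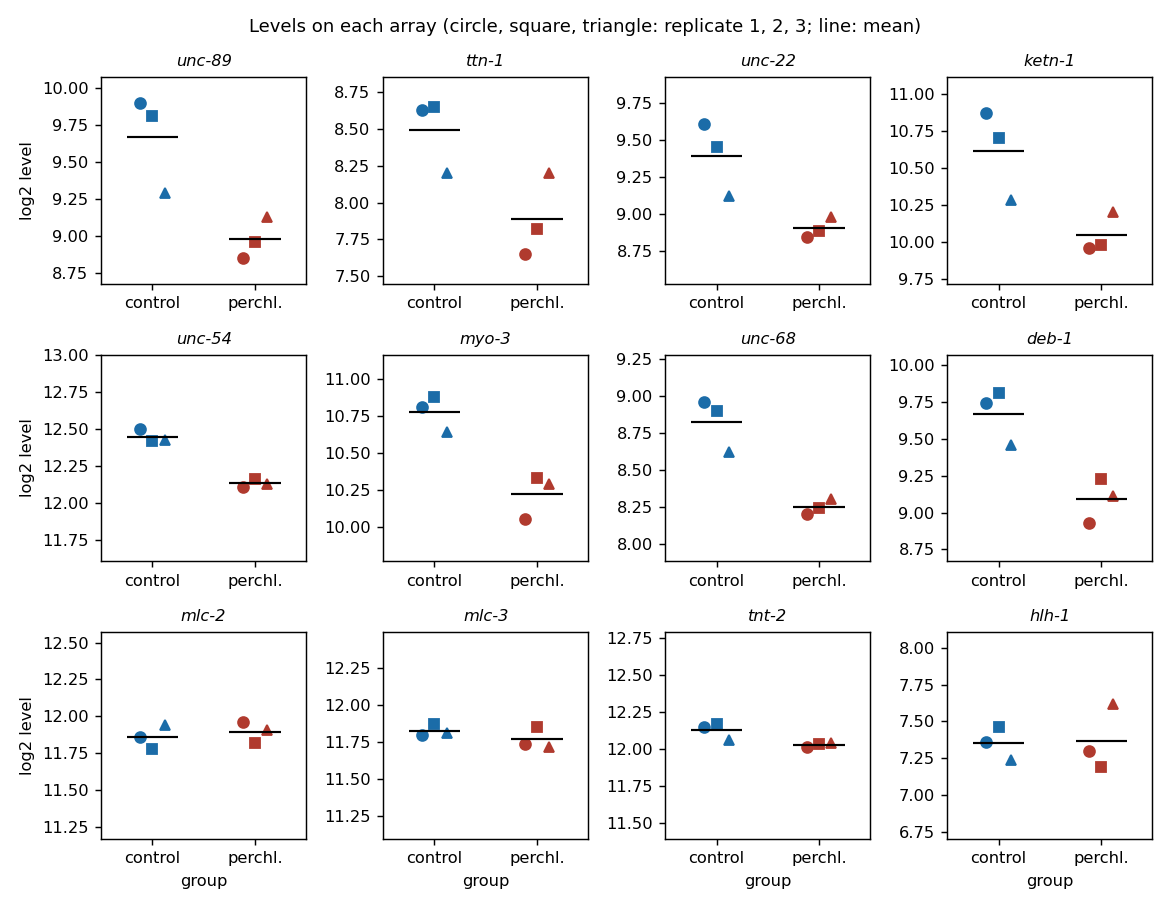
Log2 level (vertical axes, each spanning the same range) of 12 sarcomere genes in the control (blue) and perchlorate (red) groups, with circle, square and triangle for replicates 1, 2 and 3 and a line at each mean. The perchlorate points lie below the controls in unc-89, unc-22, ketn-1, unc-54, myo-3, unc-68, deb-1 and tnt-2, meet them in ttn-1, and overlap them in mlc-2, mlc-3 and hlh-1.

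Among the thick filament genes, both myosin heavy chains and paramyosin lay below the controls, and the myosin light chains lay near 0. Of 7 genes, 3 were lower at an unadjusted limma p under 0.05, 0 were higher, and the median was -0.14. The shares of all probe sets at that level were 7.92% lower and 8.46% higher. Myosin heavy chain A, encoded by myo-3, occupies the middle of the thick filament. Its level was 10.81, 10.88 and 10.64 in controls and 10.05, 10.33 and 10.29 with perchlorate. The groups did not overlap, replicate 1 was the lowest perchlorate array, and the difference was -0.55 (SE 0.130, limma adjusted p = 0.151), or 68.3% of the control level. Myosin heavy chain B, the main body wall isoform encoded by unc-54, was at 12.50, 12.42 and 12.43 in controls and at 12.11, 12.16 and 12.13 with perchlorate. The unc-54 groups were tight and separate, with SDs of 0.045 and 0.0279, and the difference was -0.32 (SE 0.101, limma adjusted p = 0.206), or 80.3% of control.

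Paramyosin, the core protein of the thick filament encoded by unc-15, differed by -0.33 (SE 0.116, limma adjusted p = 0.241). Its level was 12.23, 12.20 and 12.01 in controls against 11.76, 11.91 and 11.80 with perchlorate, without overlap. The regulatory light chain genes mlc-1 and mlc-2 are neighbours in the RefSeq annotation (WBcel235) and encode near-identical proteins, so their probe sets may share signal. They differed by -0.14 (95% interval -0.41 to 0.12) and 0.04 (-0.22 to 0.30), and the essential light chain gene mlc-3 by -0.05 (-0.30 to 0.19). Perchlorate and control values overlapped in all 3 light chain genes. The myosin chaperone gene unc-45 differed by -0.14 (-0.41 to 0.12), also with overlap.

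Differences of the thin filament genes were small, and all of them lay below 0. The 12 genes ran from -0.32 to -0.04 with a median of -0.16, which was -0.10 without perchlorate replicate 1. At an unadjusted limma p under 0.05, 1 was lower and 0 were higher, a share close to the 7.92% of all probe sets that were lower. That gene was unc-78, whose product, actin-interacting protein 1, works with cofilin in actin turnover. Its level was 8.71, 8.81 and 8.83 in controls and 8.52, 8.45 and 8.40 with perchlorate, a difference of -0.32 (SE 0.105, limma adjusted p = 0.214). Cofilin itself, from unc-60, differed by -0.24 and the actin gene act-4 by -0.25, with limma adjusted p of 0.365 and 0.347. Actin genes are close in sequence, so the act-4 value may include signal from its relatives.

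The calcium switch of the thin filament lay closer to 0. Tropomyosin, from lev-11, differed by -0.20, and pat-10, which encodes body wall troponin C, by -0.23. The troponin I genes tni-1, unc-27 and tni-3 differed by -0.16, -0.15 and -0.04, and the troponin T genes tnt-2 and mup-2 by -0.10 and -0.09. The calponin-like genes unc-87 and clik-1 differed by -0.13 and -0.08. Of these 9 genes, tnt-2 and unc-87 had groups that did not overlap: tnt-2 was at 12.15, 12.17 and 12.06 in controls and at 12.01, 12.03 and 12.04 with perchlorate. Both genes were lower, as were 11.2% of all probe sets without overlap. In pat-10, lev-11 and unc-27 perchlorate replicate 2 lay among the controls, and in pat-10 the values were 11.97, 12.08 and 12.05 against 11.65, 12.03 and 11.72. The 95% intervals of all 9 genes included 0.

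**Figure D4:**
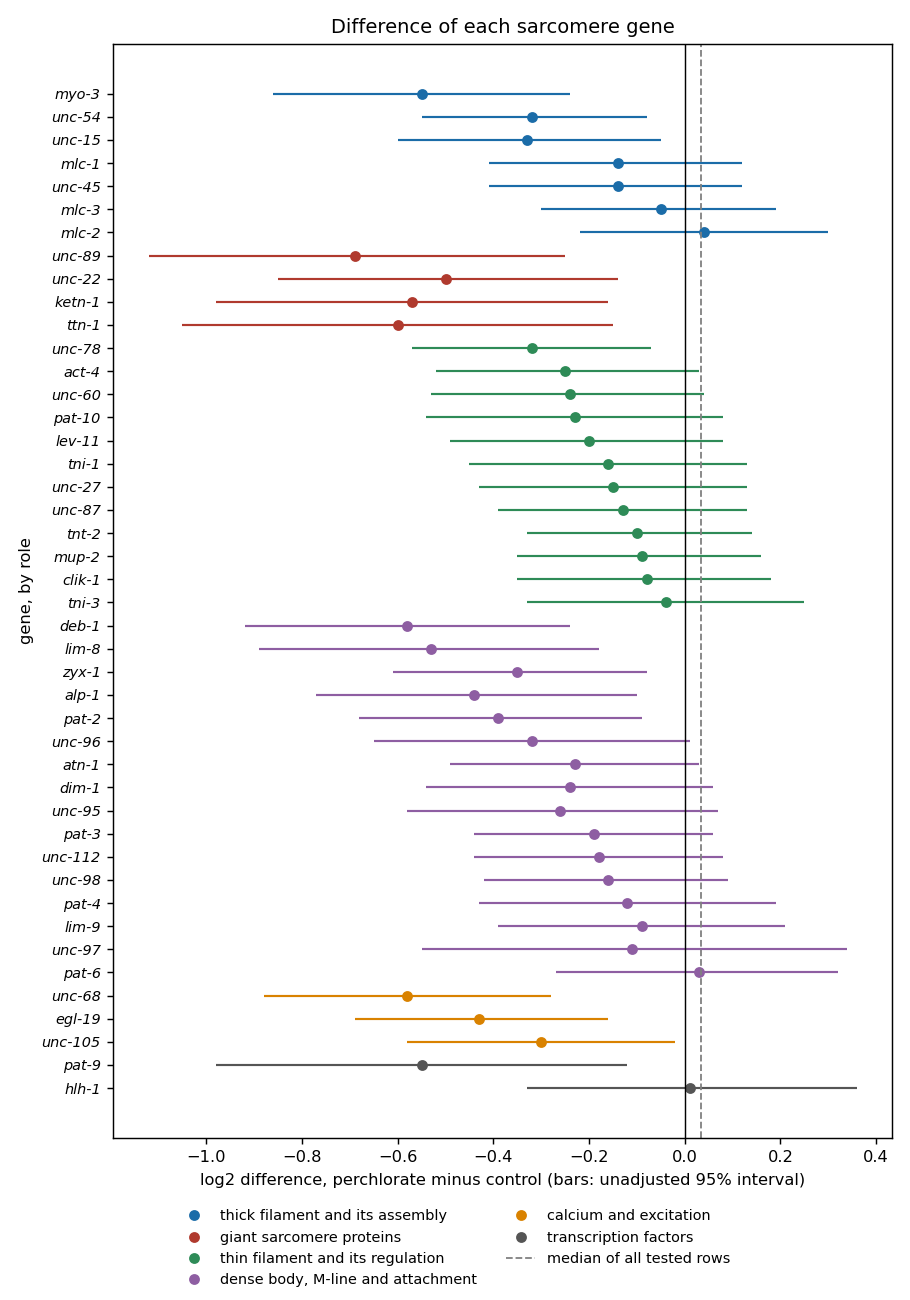
Log2 difference, perchlorate minus control (horizontal axis), of each of the 44 sarcomere genes (points coloured by role) with its unadjusted 95% interval from limma (bars). The solid line marks 0 and the dashed line the median of all tested probe sets, 0.03; the points run from -0.69 in unc-89 to 0.04 in mlc-2.

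Attachment genes were spread from -0.58 to 0.03, with a median of -0.23 over 16 measured genes. At an unadjusted limma p under 0.05, 5 were lower and 0 higher, and 10 had perchlorate values below all controls. The corresponding shares of all probe sets were 7.92% lower, 8.46% higher and 11.2% below all controls. Vinculin, the dense body protein encoded by deb-1, was at 9.74, 9.81 and 9.46 in controls and at 8.93, 9.23 and 9.11 with perchlorate. The groups did not overlap, and the deb-1 difference was -0.58 (SE 0.144, limma adjusted p = 0.155), or 67% of the control level. The LIM-domain gene lim-8 was at 8.77, 8.74 and 8.67 in controls and at 7.89, 8.31 and 8.38 with perchlorate, a difference of -0.53 (SE 0.151, limma adjusted p = 0.180). The lowest lim-8 value was that of perchlorate replicate 1, without which the difference was -0.38.

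Other dense body genes included alp-1, an ALP/Enigma protein with PDZ and LIM domains, at -0.44, and the zyxin gene zyx-1 at -0.35. For zyx-1 the levels were 10.77, 10.79 and 10.57 in controls and 10.34, 10.41 and 10.33 with perchlorate, without overlap. The alpha-actinin gene atn-1 differed by -0.23 (95% interval -0.49 to 0.03), and dim-1, which encodes an immunoglobulin-domain protein of the dense body region, by -0.24. Of further genes for proteins found at the M-line, some of which also sit at dense bodies, unc-96 was at -0.32, the LIM-domain gene unc-95 at -0.26, the zinc finger gene unc-98 at -0.16 and unc-97, the PINCH homologue, at -0.11. None of these 4 reached an unadjusted limma p under 0.05 (adjusted p between 0.319 and 0.817).

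At the membrane, the integrin alpha gene pat-2 differed by -0.39 (SE 0.126, limma adjusted p = 0.213) and the integrin beta gene pat-3 by -0.19 (SE 0.106, limma adjusted p = 0.417). Control values of pat-2 were 9.48, 9.49 and 9.50, and perchlorate values 8.91, 9.15 and 9.27. Neither integrin gene had overlapping groups. Genes for proteins of the adhesion complex inside the membrane lay nearer to 0: the kindlin gene unc-112 at -0.18, the integrin-linked kinase gene pat-4 at -0.12, the parvin gene pat-6 at 0.03 and lim-9, a LIM-domain gene, at -0.09. The 95% intervals of these 4 genes all included 0, for instance -0.43 to 0.19 in pat-4 and -0.27 to 0.32 in pat-6. The doubly annotated unc-52 probe set was at 9.99, 9.93 and 9.61 in controls and at 9.32, 9.43 and 9.24 with perchlorate, a difference of -0.51 (SE 0.139, limma adjusted p = 0.170). Counting it would give 18 lower genes of 45.

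Calcium and excitation genes were lower on every perchlorate array than on any control array in 3 of 3 cases, with a median of -0.43. Without overlap, 11.2% of all probe sets were lower. Among the 12 further calcium and ion channel genes described below, 3 were lower without overlap, with a median of -0.09. The ryanodine receptor gene unc-68, whose channel releases calcium from the sarcoplasmic reticulum, had the smallest limma p of the sarcomere genes. It was at 8.96, 8.90 and 8.62 in controls and at 8.20, 8.24 and 8.30 with perchlorate, a difference of -0.58 (SE 0.129, limma adjusted p = 0.148). The voltage-gated calcium channel gene egl-19, which is also used in pharyngeal and other muscle, was at 8.21, 8.10 and 7.96 in controls and at 7.64, 7.68 and 7.68 with perchlorate. Its perchlorate values were close together (SD 0.0209), and the difference was -0.43 (SE 0.113, limma adjusted p = 0.164). The degenerin channel gene unc-105, at 5.98, 6.18 and 5.97 in controls and 5.62, 5.80 and 5.80 with perchlorate, differed by -0.30 (SE 0.119, limma adjusted p = 0.275). That level was near the array medians of 5.81 to 5.89, where a fold change is less certain than at high levels.

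The muscle transcription factors hlh-1 and pat-9 had unlike differences. The MyoD homologue hlh-1, which specifies body wall muscle, was at 7.36, 7.46 and 7.24 in controls and at 7.30, 7.19 and 7.62 with perchlorate. Its groups overlapped and the difference was 0.01 (95% interval -0.33 to 0.36). The zinc finger gene pat-9, needed for myofilament assembly, was at 8.53, 8.64 and 8.10 in controls and at 7.62, 7.98 and 8.02 with perchlorate. It differed by -0.55 (SE 0.184, limma adjusted p = 0.221), and control replicate 3 lay just above the highest perchlorate value. Outside the 45 listed genes, the serum response factor homologue unc-120 differed by 0.03 (-0.27 to 0.32) and hnd-1, a HAND homologue acting mainly in the embryo, by -0.07 (-0.73 to 0.60). The control mean of hnd-1 was 4.72, below the array medians of 5.81 to 5.89.

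Related genes were compared by their log2 ratio within each array, in 10 pairs, with a two-sided exact permutation test whose smallest possible p for 3 against 3 is 0.1. Relative to myo-3, unc-54 was higher by 0.23 with perchlorate (SE 0.105, exact permutation p = 0.1, adjusted 0.5 over the pairs). Relative to lim-9, lim-8 differed by -0.45 (SE 0.106, exact permutation p = 0.1, adjusted 0.5). In these pairs the ratios of the 3 perchlorate arrays lay on one side of the 3 control ratios. Ratios overlapped between groups in the other 8 pairs. Among those, mlc-1 against mlc-2 differed by -0.18 (SE 0.101), pat-2 against pat-3 by -0.19 (SE 0.124) and tnt-2 against mup-2 by -0.01 (SE 0.0473), with exact permutation p of 0.3, 0.3 and 1.

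Muscle genes outside the 45 were described from lists, of which 61 of 66 genes were measured. Over these 61 the median was -0.11, with 13 lower and 0 higher at an unadjusted limma p under 0.05. Over all probe sets 7.92% were lower and 8.46% higher. Attachment and basement membrane genes had the lowest median, -0.35 over 16 genes, 9 of them lower at that level. Their largest differences were in unc-82, an M-line kinase gene (-0.63), lam-2, the laminin gamma gene (-0.59), and cpna-1, a copine-domain gene of integrin adhesions (-0.53). The unc-82 levels were 7.89, 8.03 and 7.81 in controls and 6.98, 7.29 and 7.55 with perchlorate, without overlap. Laminins and type IV collagens of this list also belong to basement membranes of other tissues.

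Medians of the next muscle lists ran from -0.16 to -0.04. Below 0 were 7 of 10 further thin filament genes, 10 of 12 calcium and ion channel genes and 5 of 9 receptor genes. So were 6 of 8 dystrophin complex genes and 3 of 4 chaperone genes, beside 44.8% of all probe sets. Some receptor and channel genes lay below the array medians of 5.81 to 5.89. Among them were unc-29 and sup-10, with control means of 4.84 and 5.65. A difference, or its absence, is less certain there. At an unadjusted limma p under 0.05, 1 of 10 further thin filament genes was lower, the formin gene fhod-1 (-0.60), and the median was -0.09. Next in size in that list were the tropomodulin gene unc-94 (-0.24) and tmd-2 (-0.19). Of 12 calcium and ion channel genes 1 was lower, sca-1, the calcium pump of the sarcoplasmic reticulum (-0.35), and the median was -0.09. The potassium channel gene slo-1 differed by -0.29 and the inositol trisphosphate receptor gene itr-1 by -0.17, whereas calsequestrin, from csq-1, differed by -0.12. Among 9 genes for neuromuscular receptors and partners 1 was lower, the GABA receptor gene unc-49 (-0.57). The acetylcholine receptor genes unc-63, lev-1, unc-29, lev-8, unc-38 and acr-16 differed by -0.47, -0.15, 0.12, 0.10, 0.09 and 0.01. The further genes cam-1 and molo-1 differed by -0.18 and -0.11, and the groups did not overlap in cam-1. The median of that list was -0.11. In the dystrophin complex list of 8 genes 1 was lower, dyc-1 (-0.28), with a median of -0.16, and sgcb-1 and stn-1, a sarcoglycan and a syntrophin gene, differed by -0.28 and 0.26. Of 4 chaperone genes 0 were lower or higher, with a median of -0.04, and chn-1, sgt-1 and hsp-1 at 0.26, -0.19 and -0.07. Over all probe sets 7.92% were lower and 8.46% higher at an unadjusted limma p under 0.05. A single lower gene in a list of 8 to 12 is close to that share. Limma adjusted p-values in all of these lists were at least 0.146.

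**Figure D5:**
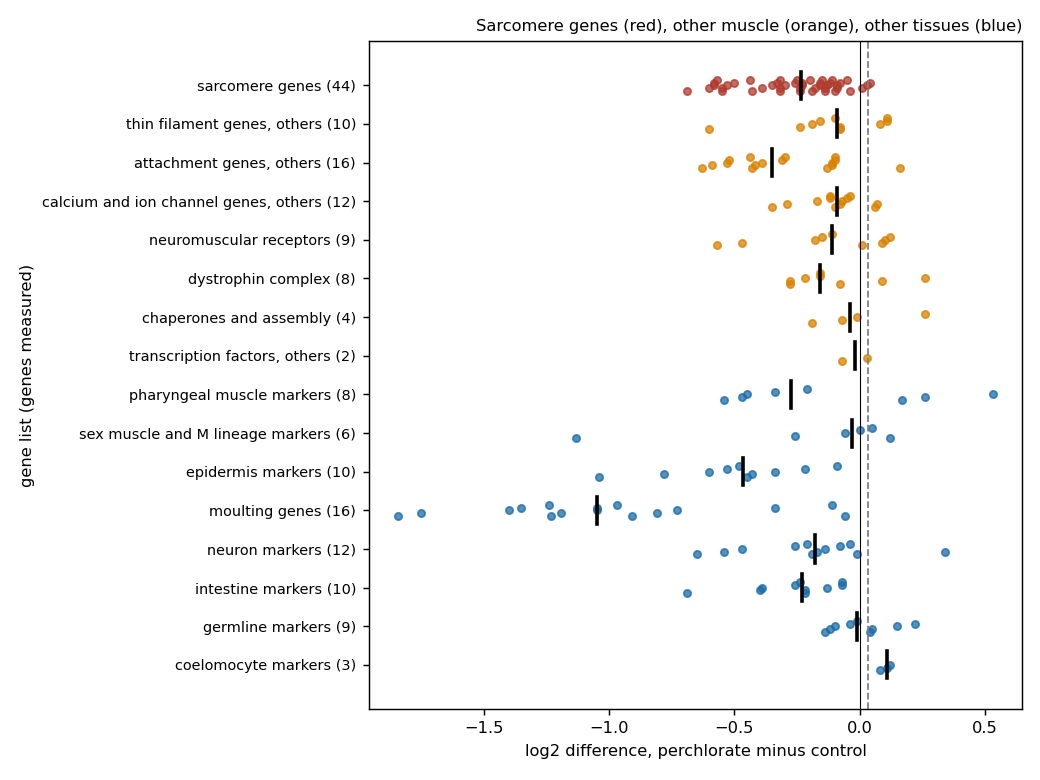
Log2 difference, perchlorate minus control (horizontal axis), of single genes (points) by list (rows, number of genes measured in brackets), with the median of each list as a black bar, 0 as a solid line and the median of all tested probe sets as a dashed line. Moulting genes (median -1.05) and epidermis markers (-0.46) lie farther left than the sarcomere genes (-0.24), intestine markers (-0.23) lie near them, and germline markers (-0.01) lie near 0.

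Markers of several other tissues also lay below the controls on these arrays, and their part in the muscle values was not tested. All 10 epidermis markers were below 0 with a median of -0.46, 6 of them lower at an unadjusted limma p under 0.05. The largest differences there were in the collagen gene rol-6 (-1.04), vab-19 (-0.78) and che-14 (-0.60). In the moulting list 16 of 16 genes were below 0 and 13 lower at that level, with a median of -1.05. Against the control mean, that median was 0.06, 0.08 and -0.19 in controls and -1.67, -0.84 and -0.72 with perchlorate, so that control replicate 3 and perchlorate replicate 1 were the lowest of their groups there too. All 10 intestine markers were below 0 (median -0.23, 4 lower), as were 11 of 12 neuron markers (median -0.18, 3 lower and 1 higher). Over all probe sets 44.8% lay below 0, and 7.92% were lower and 8.46% higher at that level. The 9 germline markers had a median of -0.01 with 0 lower or higher, and the 3 coelomocyte markers lay between 0.08 and 0.12. Control means of the coelomocyte markers unc-122 and lgc-26, 4.67 and 5.66, lay below the array medians of 5.81 to 5.89. The differences between the list medians and the sarcomere median of -0.24 were not tested.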

How the data were processed

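Gene expression was measured on 6 Affymetrix arrays, 3 control and 3 perchlorate, grouped by sample title. RNA, isolated with Trizol and glass beads, was column-purified, DNase-treated and amplified into biotin-labelled cDNA, per the labels' protocols. The authors deposited log2 values per probe set; the submitters' processing notes name RMA and Affymetrix Expression Console. For tool versions and the build, the entry is "not given in the sources used here", and coordinates are left out. Of 29317 probe sets 25546 had 1 gene symbol in the platform annotation, 646 several and 3125 none; the 26192 with a gene were tested, without a filter on dim values. Limma 3.58.1 under R 4.3.3 (lmFit, eBayes without trend, two-sided, Benjamini-Hochberg over all tested probe sets, threshold 0.05) had 4 residual and 3.12 prior degrees of freedom. The fit was tested on simulated data whose planted differences were all larger than those of the sarcomere genes. Its power at the sizes seen here was not tested. The number of arrays limits the precision.

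A gene took its brightest probe set with 1 symbol. Values on every array are given for up to 10 sarcomere genes with the smallest limma p and for the giant, paralogous and selected other genes; up to 3 genes per other list with the largest differences are named, and further ones as context, chosen after their values were seen. Members and lists were chosen with earlier results of these data known, so lists are described by counts and medians without a test. Alternatives were a replicate block, each array left out, repeated quantile normalisation, median centring, 2 filters on dim probe sets, a trended and robust prior, array weights, all probe sets, and the mean of a gene's probe sets. A planned relation to protein length was not run, since the references used here held no protein sequences to take lengths from.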

Additional observations from a re-analysis of the deposited data

How the results depend on the processing

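Of the 44 sarcomere genes 38 kept the sign of their difference under all 15 alternatives, and the 6 others lay near 0: on leaving out single arrays tni-3 ranged from -0.13 to 0.02, unc-97 from -0.23 to 0.06, pat-6 from -0.06 to 0.12, hlh-1 from -0.11 to 0.10, mlc-2 from -0.00 to 0.08 and lim-9 from -0.18 to 0.00, and with array weights hlh-1 was -0.01. The count of sarcomere genes passing limma adjusted over all probe sets was 0 and became 2 with a trended and robust prior (unc-54 and myo-3, limma adjusted p = 0.0351 and 0.0418), where 328 probe sets passed in all, 1.25% of those tested. Above the median level 97 probe sets passed, 0.741%, and 0 sarcomere genes, the smallest limma adjusted p being 0.0562. On leaving out single arrays, the genes lower at an unadjusted limma p under 0.05 numbered between 10 and 23, and the median difference lay between -0.30 and -0.18. The median moved by more than the spread between arrays for further thin filament genes (-0.15 without perchlorate replicate 2), neuromuscular receptors (-0.19 to -0.02), neuron markers (-0.23 to -0.14) and all muscle genes outside the list (-0.18 to -0.10); the cause was not tested. Replicate numbers did not pair the arrays (correlations of deviations 0.03, -0.02 and -0.01 for numbers 1, 2 and 3), and with the replicate block 16 sarcomere genes were lower in place of 17, 0 passed adjusted, and 0 of all probe sets passed in place of 2. The mean of a gene's probe sets left the differences as they were, since each measured sarcomere gene has 1 probe set. The planned relation to protein length was not run.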

Other observations

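Pharyngeal muscle, which uses its own myosins and troponins, showed differences in both directions among 8 marker genes, with a median of -0.27. At an unadjusted limma p under 0.05, 3 were lower and 1 higher, beside 7.92% and 8.46% of all probe sets. The pharyngeal myosin genes myo-2 and myo-1 differed by -0.54 (SE 0.216, limma adjusted p = 0.280) and -0.47 (SE 0.168, limma adjusted p = 0.244). The level of myo-2 was 10.40, 10.46 and 9.76 in controls and 9.43, 9.75 and 9.82 with perchlorate, so that control replicate 3 lay among the perchlorate values. The pharyngeal troponin C gene tnc-2 was at 8.22, 8.52 and 8.63 in controls and at 8.96, 9.08 and 8.91 with perchlorate. Its groups did not overlap and it differed by 0.53 (SE 0.139, limma adjusted p = 0.163), on the opposite side of 0 from its body wall counterpart pat-10 at -0.23.

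Of 6 markers of sex muscles and the mesoblast lineage 1 was lower at an unadjusted limma p under 0.05. Over all probe sets 7.92% were lower. The lower marker was sem-2, a SoxC homologue of the sex myoblast fate. It was at 9.23, 9.08 and 9.05 in controls and at 7.33, 8.25 and 8.39 with perchlorate, a difference of -1.13 (SE 0.271, limma adjusted p = 0.152). The other named genes of that list, hlh-8 and mls-2, differed by -0.26 and 0.12, and the list median was -0.03. The control mean of mls-2 was 4.41, below the array medians of 5.81 to 5.89.

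A second probe set touching the sarcomere list is assigned to unc-22 together with ZK617.7 and so names no single gene. It was at 6.66, 6.82 and 6.53 in controls and at 5.74, 6.28 and 5.60 with perchlorate, without overlap, a difference of -0.80 (SE 0.192, limma adjusted p = 0.152).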
